A study of Arabidopsis thaliana with 4 samples.

Results

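The HD-ZIP II genes ATHB2 (AT4G16780), ATHB4 (AT2G44910), HAT1 (AT4G17460), HAT2 (AT5G47370), HAT3 (AT3G60390) and HAT22 (AT4G37790) of Arabidopsis thaliana were taken by locus identifier, 6 of the 27444 nuclear coding genes in the annotation. All 6 identifiers were found there, under the symbols HB-2, HB4, HAT1, HAT2, HAT3 and HAT22. Binding was mapped by chromatin immunoprecipitation followed by sequencing (ChIP-seq) on FLAG-M2 agarose beads, from 10-day seedlings raised under continuous light. The 4 libraries were a FLAG-tagged mutant RGA (Frga11) in sly1 dP, FLAG-tagged wild-type RGA (FRGA) in sly1 dP, a control of the mutant described in the labels as sly1 dP, and a control of the wild type described there as RGA sly1 dQ. The titles of these controls read control of Frga11 sly1 dP and control of FRGA sly1 dP. With 1 library in each group, nothing that differs between the lines was checked in a replicate. All groups carry sly1; the labels do not say which promoter drives the tagged proteins, what dP and dQ stand for, or how many lines or plants were pooled.

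HD-ZIP II proteins are homeodomain-leucine zipper transcription factors that act mostly as repressors. ATHB2, ATHB4, HAT1, HAT2 and HAT3 are known for fast induction in canopy shade, where phytochrome loses its active form and PIF transcription factors accumulate. RGA is a DELLA protein, a growth repressor that binds PIFs and other transcription factors. It reaches chromatin through some of its partner proteins, and which partner acts at these genes was not tested. The F-box protein SLY1, lacking in sly1, removes DELLA proteins when gibberellin is present. The series title concerns how the PFYRE subdomain ties a DELLA protein to target chromatin by way of histone H2A, and the comparison asks whether the mutant protein still marked these genes.

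All 6 genes carried called FLAG-RGA wild-type signal and none carried called FLAG-rga11 mutant signal. A gene was counted when the summit of a peak fell in the gene or at most 1 kb beyond one of its ends. By that rule 0 of the 6 had a summit in the mutant list, where 1.79% of all coding genes had one. In the wild-type list 6 of 6 had one, where 23.2% of all coding genes did. With 1.79% of genes marked in the mutant, no marked gene among 6 is near the background, and the count by itself does not set these genes apart from others in the mutant list. The members' count in the wild type stood above the background. Of the 6, 4 had 2 summits, against 3.98% of all coding genes and 17.2% of wild-type target genes. The members were chosen with earlier results of these data known, so these contrasts describe the 6 genes and test nothing. The wild-type count depended on the stringency of the list: with peaks of a −log10 q of at least 10 only HAT1 was marked, 1 of 6, where 6.54% of all coding genes were. The genes are not long: their median length was 1765 bp, against 2078 bp for all coding genes and 2284 bp for wild-type targets.

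**Figure D1:**
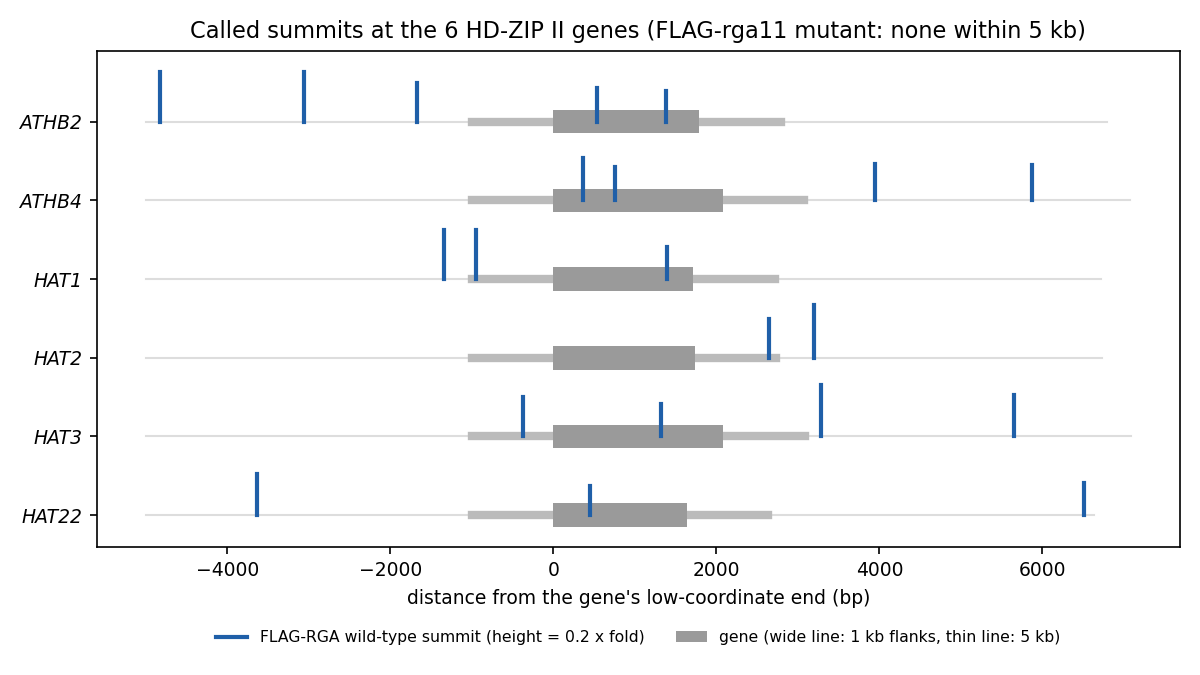
Called summits at the 6 genes, by distance in bp from the end of the gene with the lower coordinate. Grey boxes are the genes, wide lines the 1 kb flanks and thin lines the 5 kb flanks; blue ticks are wild-type summits with heights proportional to fold, and the mutant list has none in these windows.

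The peak lists held 505 peaks for the mutant and 6116 for the wild type, from a separate call by the authors for each line. The fold of a peak is the authors' ratio of ChIP over control coverage at the summit, with a pseudocount of 1, and −log10 q is their adjusted significance for that peak within its list. The number of ChIP fragments covering a summit, and the level of the control there, were solved from fold and −log10 p. The genome background was 15.3 ChIP fragments per base in the mutant library, scaled by 0.470 to 7.21 for its call, and 14.5 in the wild-type call. Folds of the lists were taken against different controls and are not on 1 scale. The mutant list names its control otherwise than the labels do, so which library served there is unsettled. Positions are TAIR10. The gene table gives no strand, so the 5′ and 3′ ends of a gene are unknown here, and gene ends are named by lower or higher coordinate. Intervals are exact 95% Poisson intervals of the ChIP fragments, with the control level held fixed, and cover counting error only.

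ATHB2, which promotes hypocotyl elongation in shade and is a direct target of PIF proteins, had 2 wild-type summits inside the gene and none in the mutant. The first peak ran from 9449564 to 9449741 on chromosome 4, with its summit 538 bp inside the lower end. There 52 ChIP fragments stood over a control level of 23.6, a fold of 2.15 (1.62 to 2.81) with a −log10 q of 4.58. The second peak, from 9450345 to 9450559, had its summit 406 bp inside the higher end and 105 fragments over a control level of 53.1. That gave a lower fold, 1.96 (1.60 to 2.37), but a higher −log10 q, 7.36. Of the 10 member summits within 1 kb it had the most ChIP fragments and also the highest control level, 3.68 times background. This summit also lay within 1 kb (977 bp) of the neighbouring gene AT4G16790.

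ATHB4, which acts with HAT3 in setting the upper side of leaves, also had 2 summits inside the gene. The stronger peak lay on chromosome 2 from 18517898 to 18518090, with its summit 362 bp inside the lower end. It had 57 fragments over a control level of 20.7, a fold of 2.68 (2.04 to 3.46) and a −log10 q of 8.21. The other, from 18518348 to 18518483, had its summit 392 bp further in, with 39 fragments over 17.7 and a fold of 2.14 (1.54 to 2.90). Its −log10 q of 3.33 was among the lowest values in the list.

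HAT3 had 1 summit outside and 1 inside. The outer peak, on chromosome 3 from 22320145 to 22320311, had its summit 372 bp beyond the lower end, with 56 fragments over a control level of 21.6. Its fold was 2.52 (1.91 to 3.26) and its −log10 q 7.12, and the summit lay 580 bp from the neighbouring gene AT3G60380. The inner peak, from 22321785 to 22321977, had a fold of 2.03 (1.51 to 2.67) and a −log10 q of 3.66.

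HAT1, known as a partner of the brassinosteroid-regulated factor BES1, had the strongest peak within 1 kb of the 6 genes. It ran from 9738512 to 9738719 on chromosome 4, and its summit lay 947 bp beyond the lower end, just inside the 1 kb limit. There 72 fragments stood over a control level of 22.6, a fold of 3.09 (2.43 to 3.88) with a −log10 q of 13.4. It was the only member peak within 1 kb with a −log10 q of 10 or more. A second peak inside HAT1, from 9740818 to 9740971, had 94 fragments over a control level of 45.3 and a fold of 2.05 (1.66 to 2.51).

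HAT2, an auxin-induced gene, had no summit inside. Its 1 peak lay on chromosome 5 from 19218826 to 19218974, with the summit 904 bp beyond the higher end, 59 fragments over a control level of 23.6, a fold of 2.44 (1.87 to 3.13) and a −log10 q of 7.01. The lncRNA genes AT5G06985 and AT5G06995 were nearer to this summit, 480 and 847 bp away, so the peak is not tied to HAT2 by position alone. HAT22, also called ABIG1 and linked to leaf growth under drought, had the weakest signal. Its 1 peak, on chromosome 4 from 17768333 to 17768559, had its summit 455 bp inside the lower end and 57 fragments over a control level of 30.5. The fold was 1.84 (1.40 to 2.38) and the −log10 q 3.14.

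**Figure D2:**
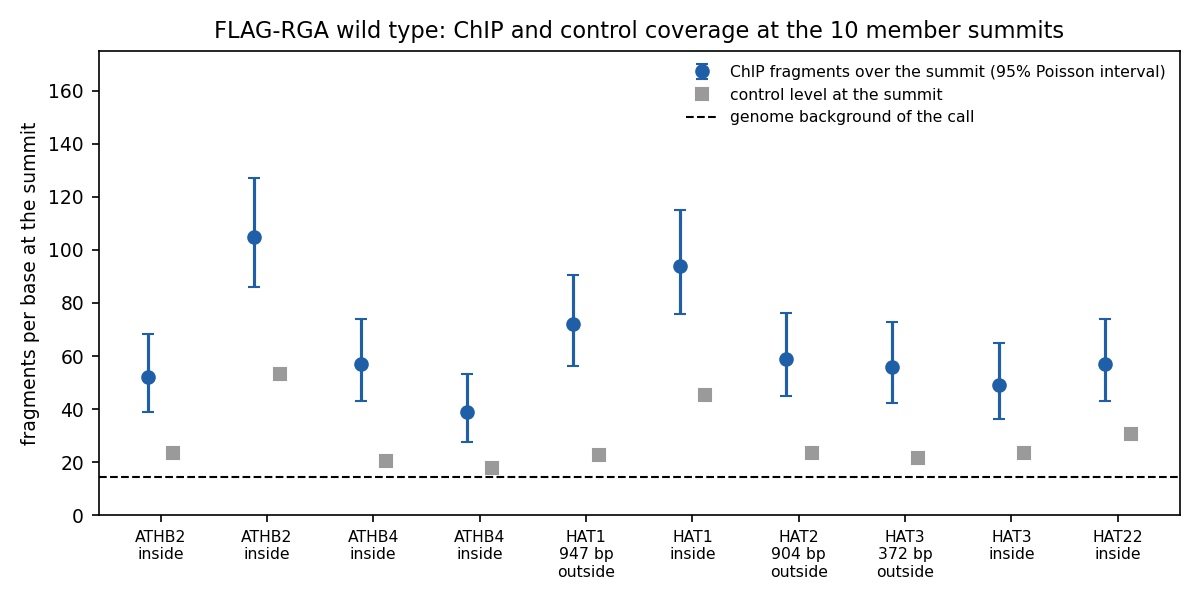
ChIP fragments over each of the 10 member summits in the wild type, with exact 95% Poisson intervals, beside the control level there, both in fragments per base; the dashed line is the genome background of 14.5. ChIP lies above the control at every summit, and the control is highest at the second ATHB2 summit and the HAT1 summit inside the gene.

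Of the 10 member peaks within 1 kb 4 had a fold above the median of the wild-type list and 6 did not, and their median was 2.15, against 2.37 for the list. By highest fold the order was HAT1 (3.09), ATHB4 (2.68), HAT3 (2.52), HAT2 (2.44), ATHB2 (2.15) and HAT22 (1.84). The intervals of all 5 neighbouring pairs in this order overlapped, as did those of 14 of the 15 possible pairs; only HAT1 and HAT22 had intervals that did not. The median of the 6 values was 2.48, against 2.37 for all 6368 wild-type target genes; a highest value favours genes with 2 summits, which were more frequent among the members. HAT1 exceeded 84.2% of these targets and HAT22 8.45% of them. C2, XPL1, AT4G09965, AT4G09970 and CKX7 were tied with HAT1. The genes next above these were DL1B, PAS2 and MSL2. Those next below were AT4G27300, the KNOX homeobox gene KNAT4 and BZIP34, and all of these had a fold of 3.09 after rounding.

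**Figure D3:**
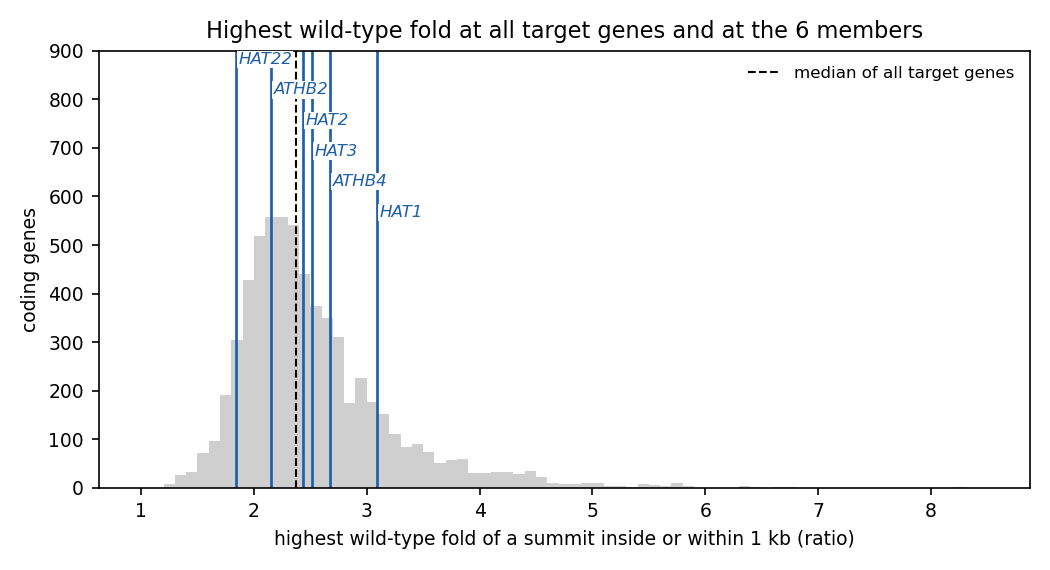
Distribution of the highest wild-type fold over the 6368 target genes (grey, number of coding genes per bin of fold), with the 6 members as blue lines and the median of 2.37 dashed. The members run from HAT22 at 1.84, above 8.45% of targets, to HAT1 at 3.09, above 84.2%.

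Of the 10 member summits 7 lay inside the gene and 3 outside. A summit inside was found at 5 of the 6 genes, against 13.2% of all coding genes. The 3 outer summits had folds of 3.09, 2.52 and 2.44, and the 7 inner ones a median of 2.05. The whole wild-type list showed the same order, with a median fold of 2.78 for summits outside but within 1 kb of a coding gene and 2.22 for those inside. Control level over background had a median of 1.43 at such outer summits and 1.84 at inner ones; over the 10 member summits the median was 1.63. The part of the control level in the lower fold of inner summits was not tested.

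The highest wild-type fold around most of these genes lay beyond the 1 kb limit, but at ATHB4 it lay inside the gene (2.68 against 2.30). At each gene the intervals of the highest fold within and beyond that limit overlapped, as at ATHB2 (1.62 to 2.81 and 2.65 to 3.76). Over 1 and up to 5 kb from the 6 genes there were 11 further summits, and each gene had at least 1, where 34.4% of all coding genes did. The other HD-ZIP II genes had such summits too, at 4 of 4. The folds of the 11 member summits ran from 2.03 to 3.37 with a median of 2.61, against a median of 2.15 for the 10 nearer summits. HAT2 had a summit 1465 bp beyond the higher end with 125 fragments, a fold of 3.37 and a −log10 q of 26.7. The lncRNA genes AT5G06985 and AT5G06995 were nearer than HAT2 to this summit too, so position alone does not tie it to HAT2. HAT1 had one 1343 bp beyond the lower end with 137 fragments and a fold of 3.12. HAT3 had one 1204 bp beyond the higher end (3.30), and ATHB2 had 3 beyond the lower end, at 1675, 3061 and 4827 bp, with folds of 2.47, 3.17 and 3.16.

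These outer summits lay on 1 side at ATHB2, ATHB4 and HAT3 and on both sides at HAT22. HAT1 and HAT2 had only 1 each. ATHB4 had summits 1875 bp (2.30) and 3801 bp (2.24) beyond its higher end, HAT3 a further one 3574 bp (2.61) beyond its higher end, and HAT22 summits 3643 bp (2.59) beyond its lower end and 4879 bp (2.03) beyond its higher end. For 8 of the 11 the member was the nearest coding gene; the exceptions were the second ATHB4 summit, nearest to AT2G44920, the second HAT3 summit, nearest to SHOT1, and the second HAT22 summit, nearest to the cell wall enzyme gene XTH7. Counting both zones, ATHB2 had 5 summits, ATHB4 and HAT3 4 each, HAT1 and HAT22 3 each and HAT2 2. At least 3 were found at 5 of the 6 genes, against 6.09% of all coding genes, and at least 4 at 3 genes, against 1.71%. The mean number was 3.50, against 0.745. The 5 kb window was chosen after the peak positions had been seen.

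No mutant summit lay within 5 kb of any of the 6 genes, where 4.86% of all coding genes had one. The nearest mutant summits lay 18.5 kb from HAT3, 18.7 kb from HAT1, 36.1 kb from HAT2, 51.3 kb from ATHB2, 96.2 kb from HAT22 and 107 kb from ATHB4. Their median of 43.7 kb was less than the 94.1 kb for all coding genes. None of the 10 member peaks overlapped a mutant peak, and 4.73% of all wild-type peaks did.

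Coverage and the p limit of the mutant call bound what the missing mutant peaks show. To be listed at background, a summit needed a fold of 2.93 in the mutant call and 2.2 in the wild-type call. Wild-type coverage at each summit was therefore scaled to that of the mutant call, and a summit was counted when its −log10 p reached 6.03, the lowest in the mutant list. Within 1 kb only the outer HAT1 summit reached it, with a value of 8.42; the other 9 had values from 2.97 to 5.86. So 1 of the 10 summits passed, where 35.6% of all wild-type peaks did, and 1 of the 6 genes, where 7.99% of all coding genes did. At these 9 summits a signal as strong as the wild type's would have fallen below 6.03. A loss of signal at them could therefore not be seen in the mutant list as cut there. Scaling and p limit both counted. With scaled coverage 5 of the 10 summits passed at 5.05, the lowest −log10 p of the wild-type list. With unscaled coverage 7 passed at the mutant limit. Both lists end near the same −log10 q, which is set within each list, so the 6.03 depends on the mutant list as a whole. Values at the second ATHB2, stronger ATHB4, inner HAT1 and HAT2 summits were 5.42, 5.86, 5.33 and 5.20. Whether wild-type signal would have been listed at these summits thus depends on the limit used.

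Beyond 1 kb the same calculation gave another outcome. Of the 11 summits over 1 and up to 5 kb away 8 passed, with values of 15.7 at HAT2, 15.4 at HAT1, 14.8 and 13.6 at ATHB2, 12.3 and 6.73 at HAT3 and 7.26 and 6.65 at ATHB4. At a flank of 5 kb, 5 of the 6 genes thus had a wild-type summit strong enough for the mutant call, where 20.6% of all coding genes did, and HAT22 had none. Signal of wild-type strength at these 8 summits and at the outer HAT1 summit would have passed, and the mutant list held no peak there. Most passing peaks of the whole wild-type list had no mutant peak either. Of its 6116 peaks 2178 passed, and only 289 overlapped a mutant peak. The missing mutant peaks at these summits thus do not set the 6 genes apart. The calculation assumes the wild-type control's shape for the mutant control, whose level at these sites is unknown, and takes no account of counting error.

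**Figure D4:**
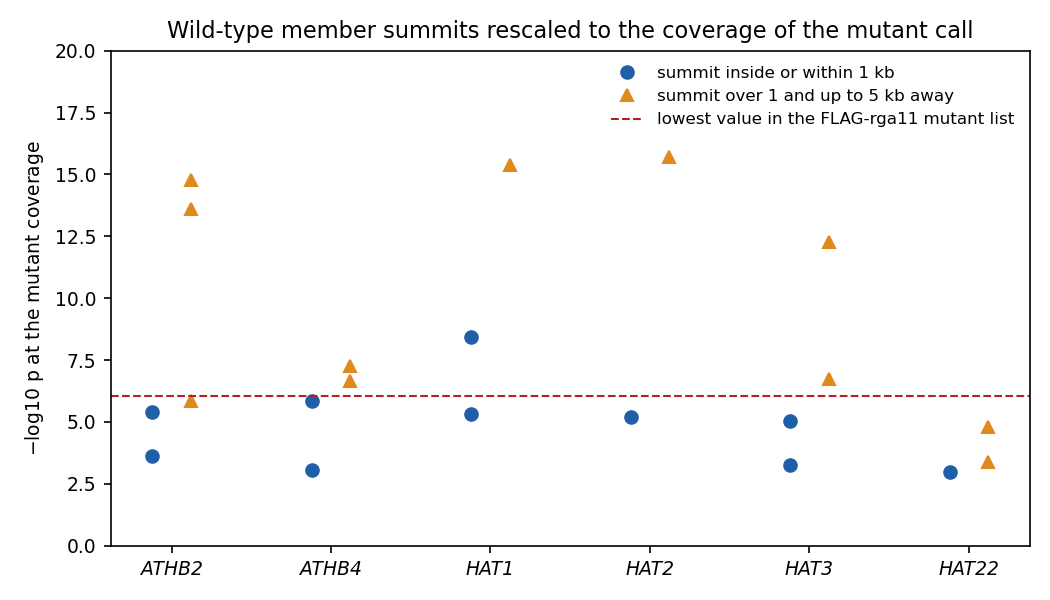
The −log10 p that each wild-type summit near the 6 genes would have at the coverage of the mutant call, with summits inside or within 1 kb as circles and those over 1 and up to 5 kb away as triangles. The dashed line is the lowest value in the mutant list, 6.03; 1 of 10 circles and 8 of 11 triangles lie above it.

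Of the 4 remaining HD-ZIP II genes, HAT9, HAT14, ATHB17 and ATHB18, 0 had a mutant summit and 1 had a wild-type summit. HAT14 had it inside the gene, with 50 fragments, a fold of 1.99 and a −log10 q of 3.53. HAT14 had 3 more summits beyond 1 kb, 1563 bp (3.40) and 2299 bp (2.32) beyond its lower end and 3848 bp (2.91) beyond its higher end. The first of these had a higher fold than any summit within 5 kb of the 6 members and a value of 7.63 at the coverage of the mutant call; it and the one at 2299 bp lay inside the neighbouring gene AT5G06700. The nearest wild-type summits of the others lay 4394 bp from HAT9 (2.74), 4536 bp from ATHB17 (1.80) and 4570 bp from ATHB18 (1.83). The summits near ATHB17 and ATHB18 lay inside the auxin carrier genes PIN4 and PIN3. HD-ZIP III genes set leaf polarity, and REV among them activates several HD-ZIP II genes. Of 5 HD-ZIP III genes none had a mutant and 1 had a wild-type summit, PHB, with a fold of 4.40 at 857 bp. Of 17 HD-ZIP I genes none had a mutant and 5 had a wild-type summit (29.4%), led by ATHB54 (3.18), ATHB6 (2.55) and ATHB5 (2.29). Genes with homeobox or homeodomain in a name or synonym, a group that includes such HD-ZIP genes, had 0 of 95 marked in the mutant and 34 of 95 (35.8%) in the wild type. Of all coding genes 1.79% were marked in the mutant and 23.2% in the wild type. The mutant counts of 0 in these lists are near that share. So are the wild-type counts of 1 of 4, 1 of 5 and 5 of 17. These lists are of unequal size and the difference between them was not tested.

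Genes of the shade pathway were marked in both lines. The 20 genes run from phytochromes and PIFs to auxin synthesis and response genes. Of these, 3 had a mutant summit, against 1.79% of all coding genes, and 13 a wild-type summit, against 23.2%. This list, too, was chosen with earlier results of these data known. Their median highest fold in the wild type was 2.80 over the 13. The 3 in the mutant were the auxin synthesis gene TAA1 (3.04), the auxin response gene IAA19 (2.93) and the HLH gene PAR1 (2.57), which dampens the shade response. All 3 were also wild-type targets. PIN3 (4.60), IAA19 (4.32) and PIF5 (3.94) had the highest wild-type folds. TAA1, IAA19 and PAR1 rested on 51, 49 and 69 ChIP fragments in the mutant. Their −log10 q of 3.13, 3.13 and 3.27 were close to the lowest of the mutant list at 3.01. With a −log10 q of at least 5 required, none of the 20 was marked in the mutant, where 1.04% of all coding genes were. A count of none is near that share.

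**Figure D5:**
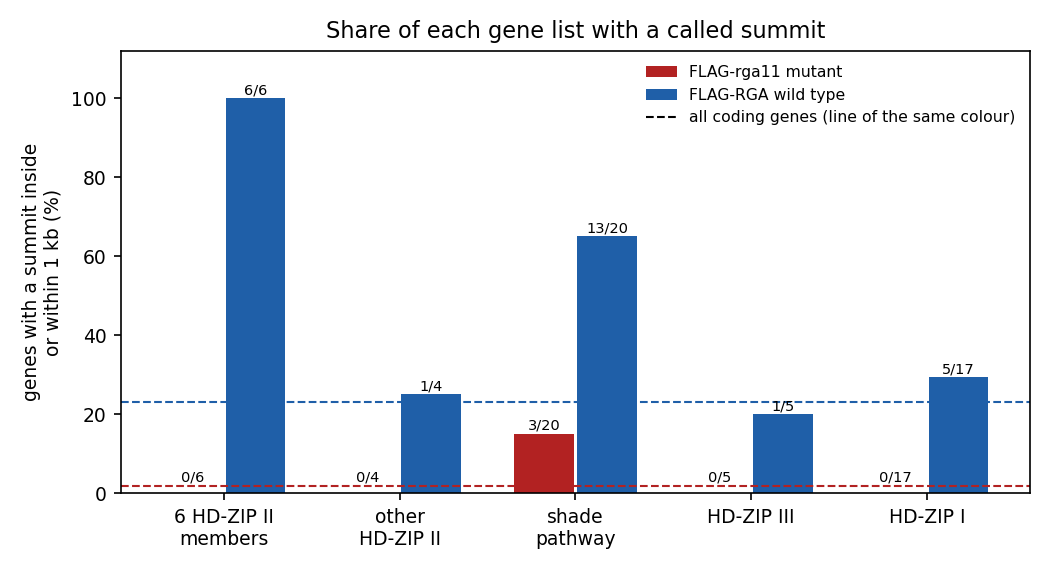
Share in percent of each gene list with a summit inside or within 1 kb, mutant in red and wild type in blue, with counts above the bars and dashed lines for all coding genes (1.79% mutant, 23.2% wild type). All 6 HD-ZIP II members are marked in the wild type and none in the mutant. Only the shade pathway list, the largest with 20 genes, has mutant summits, at 3 genes and with −log10 q close to the lowest of the mutant list. A count of 0 in the smaller lists is near the 1.79%.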

How the data were processed

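Per the submitters' processing notes, the tools named are Bowtie2 2.4.5, Trimmomatic 0.39, deepTools 3.1.3 and MACS2 2.2.7.1, on TAIR10. Per the deposited lists, each peak has a fold (a ratio of ChIP over control coverage), a −log10 p, a −log10 q and a score that is 10 times the −log10 q and was not used. Peak numbers have gaps, so the lists hold part of the peaks called by the authors. No source used here states how they were reduced. The lowest −log10 q left was 3.01 in the mutant list and 3.00 in the wild-type list. Read totals were not analysed here.

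Genes, lengths and names came from the RefSeq table on TAIR10.1, whose nuclear chromosomes were taken to share coordinates with TAIR10; all members and list genes matched. It holds neither strand nor sequence, so no sequence is printed and the motif and protein comparisons were not run. ChIP fragments n and control level c were solved from fold = (scaled n + 1)/(c + 1) and the Poisson p. Solutions lay within 0.001 of the −log10 p for 99.8% of mutant and 99.98% of wild-type peaks. On simulated data 399 of 400 peaks with scaled ChIP and 400 of 400 with unscaled ChIP were recovered. The members and lists were chosen with earlier results of these data known. Named genes were all HD-ZIP II genes, genes sharing their peaks, the neighbours of the strongest member by fold, and, of other lists, each gene with a mutant summit and the 3 highest in the wild type. No test was possible with 1 library per group. Alternatives covered the flank, the −log10 q, the upper 50% by fold, nearest gene only, peak intervals, coverage and overlap. Python 3.11.15 with scipy 1.17.1 was used.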

Additional observations from a re-analysis of the deposited data

How the results depend on the processing

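Of 91 alternatives 74 left the value within 1.5 times the first one, with no reversal. The mutant count of 0 of 6 members and the overlap of 0 member peaks held in all alternatives run. Most of these only narrow the first rule, so a 0 could not change under them. Only the flanks of 2 kb and 5 kb, the peak intervals and, for overlap, summits within 200 bp could have raised it. The 74 include such fixed zeros. The wild-type count of 6 members became 1, HAT1, both with the −log10 q limit at 10 and at the coverage of the mutant call. Other HD-ZIP II genes had 0 in the wild type with the −log10 q limit at 5, with it at 10 and in the upper 50% by fold. The 3 shade pathway genes in the mutant became 5 with a flank of 2 kb, where 2.64% of all coding genes had a mutant summit. They became 0 at the −log10 q limits of 5 and 10, where 1.04% and 0.339% of all coding genes had one. The 13 in the wild type became 6 with the limit at 10, where 6.54% of all coding genes were marked. HD-ZIP III genes in the wild type had 0 with a flank of 500 bp or inside only, and 2 with a flank of 2 kb. HD-ZIP I genes had 1 in the mutant with a flank of 2 kb, and in the wild type 3 inside only, 3 with the −log10 q limit at 10, and 2 in the upper 50% by fold. The wild-type share was 23.2% of coding genes and 35.8% of homeobox genes. The cause of these shifts was not tested beyond the fewer peaks or wider windows they use. The alternatives with a flank of 5 kb, and those that separate scaled coverage from the p limit (4 and 5 members), were added after seeing the data. No paired analysis was possible because each group had 1 library, and the labels give no replicate numbers.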

Other observations

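PIL1 and HFR1, early shade-induced bHLH genes, fell outside the 1 kb rule in both lines but had summits of both lists nearby; they were chosen after their values had been seen. At PIL1 the mutant summit lay 1142 bp away (fold 3.50) and the wild-type summit 1203 bp away (3.39, −log10 q 27.8), with the summits 61 bp apart. At HFR1 the mutant summit lay 1415 bp away (3.38) and the wild-type summit 1054 bp away (4.98), with the summits 361 bp apart. The HD-ZIP I gene ATHB5, with a wild-type summit inside, had a mutant summit 1228 bp away (2.95), and those summits lay 2070 bp apart.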
